A study of Mus musculus with 4 samples.

Results

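Pseudogenes are copies of genes that have lost the ability to make the original protein. Some are unprocessed relics that still sit beside the intact members of their family, and others are retrocopies, made when a messenger RNA was reverse transcribed and inserted at a distant place. Retrocopies usually arrive without the promoter of the parent gene, and copies of abundant messengers such as those of ribosomal proteins are the most frequent. Fos is a subunit of AP-1, a leucine zipper transcription factor that binds the motif TGANTCA (N is any base) in promoters and, above all, in enhancers far from them.

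The sites described here are the Fos summits at pseudogenes that lie apart from coding genes. A summit is the position of highest signal within a called region. A member lies on chromosomes 1 to 19, at most 500 bp from a gene to which RefSeq (assembly GRCm38.p6, known as mm10) gives the biotype pseudogene, and more than 2 kb from either boundary of every protein-coding gene. Such a summit may still lie in the interior of a coding gene. Chromosome 17 from 39.84 to 39.85 Mb was left out. By this rule 939 of 178981 summits were members. They lay in 705 regions and were nearest to 502 pseudogenes. The rule used position only, so the strength of the summits played no part in it.

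The signal came from CUT&Tag, in which an antibody, here against Fos, tethers the transposase Tn5 so that it cuts and tags the DNA nearby. The tissue was scraped colonic mucosa of wild-type mice, labelled as colonic epithelium, with 2 libraries from healthy controls and 2 from mice that had recovered from colitis, all of one batch label. The recovered mice had been given the injurious polymer dextran sodium sulfate (DSS) to drink at 1 to 1.5%. It was given in 3 cycles of 7 days on and 10 days off, and the mice were taken 22 days after the last DSS. The values analysed are one peak list without a column per library. Its name carries the letters DSS, but nothing consulted states which of the 4 libraries entered it. Whether the list holds both healthy and recovered colon is therefore unknown. No value can be split by library or condition, none has a replicate error, and no test was made. Healthy and recovered colon were not compared here. Strength is given as the authors' fold enrichment over background at the summit, a linear ratio, and as the pileup, the number of overlapping fragments read from it. No library of an untargeted antibody was used here, and open chromatin cut without Fos was not measured.

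Pseudogenes have no start windows in the RefSeq sequence table used, but 10 members fell within the 300 bp start window (250 bp before to 50 bp after an annotated start) of another gene. They are the members whose sequence can be read, and 4 are shown: the strongest ones at coding genes and one inside an olfactory receptor relic. Each is written 5′ to 3′ on the strand of its gene, from RefSeq, build GRCm38.p6, with every TGANTCA in capitals. The Elf1 window is chr14:79515424-79515723 on the plus strand and holds a summit of Gm9243. The Cox7a2 window is chr9:79759804-79760103 on the minus strand and holds a summit of Gm51685. The Mdm4 window is chr1:133025367-133025666 on the minus strand, with a summit 323 bp from Gm29257. The Gm30125 window is chr3:52237197-52237496 on the plus strand, with a summit inside Olfr1398-ps1.
Elf1: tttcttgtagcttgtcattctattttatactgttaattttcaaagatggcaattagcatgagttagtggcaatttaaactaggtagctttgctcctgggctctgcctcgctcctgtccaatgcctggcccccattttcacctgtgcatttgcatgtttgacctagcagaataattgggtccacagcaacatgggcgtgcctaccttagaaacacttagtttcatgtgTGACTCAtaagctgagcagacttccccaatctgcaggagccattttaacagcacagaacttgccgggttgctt
Cox7a2: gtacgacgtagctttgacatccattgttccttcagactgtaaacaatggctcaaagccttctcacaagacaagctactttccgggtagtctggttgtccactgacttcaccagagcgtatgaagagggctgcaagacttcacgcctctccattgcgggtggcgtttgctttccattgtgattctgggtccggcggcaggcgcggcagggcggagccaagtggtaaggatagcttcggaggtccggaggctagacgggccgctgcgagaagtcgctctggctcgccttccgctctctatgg
Mdm4: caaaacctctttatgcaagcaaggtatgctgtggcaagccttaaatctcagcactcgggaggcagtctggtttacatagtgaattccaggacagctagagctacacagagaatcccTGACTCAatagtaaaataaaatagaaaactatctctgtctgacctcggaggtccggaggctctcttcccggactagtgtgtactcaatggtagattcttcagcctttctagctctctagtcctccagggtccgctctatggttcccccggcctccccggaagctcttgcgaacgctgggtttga
Gm30125: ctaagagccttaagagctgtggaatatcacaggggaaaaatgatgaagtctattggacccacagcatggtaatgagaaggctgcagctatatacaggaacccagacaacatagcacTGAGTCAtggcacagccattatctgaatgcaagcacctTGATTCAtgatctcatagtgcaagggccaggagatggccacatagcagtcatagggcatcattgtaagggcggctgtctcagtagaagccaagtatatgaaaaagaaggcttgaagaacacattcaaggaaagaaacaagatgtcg

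The Elf1 window, a start annotated inside this ETS transcription factor gene, had its summit at base 272 with a fold of 83.2 and 345 fragments. Its TGACTCA began at base 228, and the centre of that match lay 41 bp from the summit. The Mdm4 window, of the gene for a p53 inhibitor, had a fold of 24.8 and 102 fragments, with a TGACTCA whose centre was 46 bp from the summit. The Cox7a2 window, of a cytochrome c oxidase subunit gene, reached a fold of 35.8 and 148 fragments and held no TGANTCA. The window of the lncRNA gene Gm30125 held 2 matches, at a fold of 6.49 and 26 fragments. The first, a TGAGTCA, was centred 84 bp from the summit, and the second, a TGATTCA, lay nearer to it. The other window with a match, of the lncRNA gene Gm51550, had its TGACTCA centred 237 bp from the summit, at a fold of 6.01. In all, 4 of the 10 windows (40%) held the motif on either strand. Of all 31396 start windows of the same length on these chromosomes, with or without a summit, 2463 (7.84%) did. Windows with a summit elsewhere were not counted apart, so these shares are not a like comparison. The motif reads the same pattern on both strands. The matches describe the letters of the start windows at 10 summits only and were not tested. They also show that a summit more than 2 kb from the outer boundaries of a coding gene can lie at one of its internal starts.

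Fos summits were sparser at pseudogenes than in other sequence equally far from coding boundaries. Pseudogenes and their 500 bp flanks held 30.7 summits per Mb over 30.6 Mb, while all other bases more than 2 kb from coding boundaries held 59.1 per Mb over 2232 Mb. The ratio was 0.520 (95% Poisson interval 0.487 to 0.554, counting error only, as for every interval here). Pseudogenes lie mostly between genes, where summits are fewer, and 24.5% of members (21.9 to 27.3) against 56.6% of the other distant summits lay inside a protein-coding span. Counted only outside coding spans, pseudogenes had 27.5 summits per Mb against 43.0, a ratio of 0.639 (0.593 to 0.688). Inside coding spans the densities were 48.1 and 82.9, a ratio of 0.581 (0.508 to 0.661). The lower density was present on both kinds of sequence. How the authors treated reads with several placements is not given in the sources used here, and its part in these ratios, and in the values of relics with close paralogs given below, was not tested.

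Outside coding spans, the density was lowest inside the pseudogene, at 24.7 per Mb (22.6 to 27.0), and was 35.6 (31.2 to 40.5) in the first 500 bp beyond the span. Between 500 and 1000 bp it was 46.6 (41.4 to 52.2), and from there on it stayed between 42.8 and 45.4 per Mb, also beyond 10000 bp. Sequence just outside the window thus carried about as many summits per Mb as sequence far from any pseudogene. Inside coding spans the densities were 48.3 (40.7 to 56.9) in the pseudogene and 47.8 (38.3 to 58.9) in its flank. They were 62.5, 65.1, 73.9 and 79.4 in the next 4 distance bins and 83.2 beyond 10000 bp. There the density was still below that of distant sequence several kb away.

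**Figure D1:**
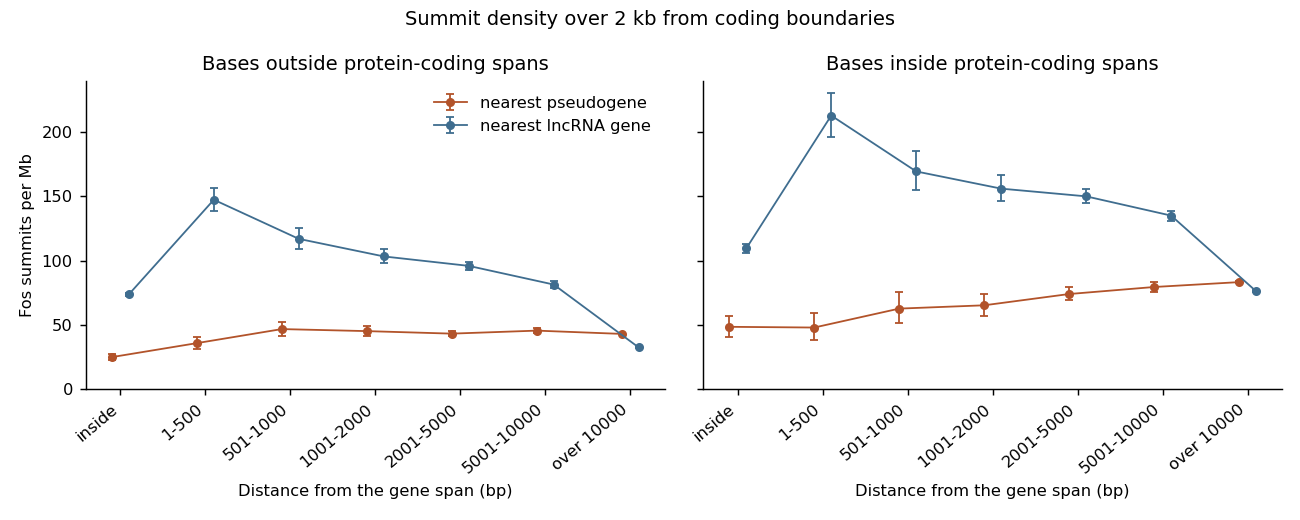
Fos summits per Mb (y axis) by distance from the nearest pseudogene or lncRNA gene span (x axis), outside (left) and inside (right) protein-coding spans, over bases more than 2 kb from coding boundaries; bars are 95% Poisson intervals. Outside coding spans pseudogene spans are at 24.7 per Mb and lncRNA genes peak at 147.4 per Mb in their first 500 bp.

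Genes for long noncoding RNAs (lncRNA) had more summits per Mb than other distant sequence under the same rule. Their spans and flanks had 84.4 per Mb against 56.0 elsewhere, a ratio of 1.51 (1.49 to 1.53). The ratio was 2.03 (1.99 to 2.06) outside coding spans and 1.44 (1.40 to 1.48) inside them. The first 500 bp beyond the lncRNA span had the highest density of the distance bins on both kinds of sequence. It was 147.4 per Mb (138.5 to 156.8) outside coding spans, where pseudogenes had 35.6, and 213.1 (196.4 to 230.8) inside them, where pseudogenes had 47.8. Of the members, 67 (7.14%) lay inside a lncRNA span, against 12.4% of the other distant summits, and 23 (2.45%) within 1 kb of a lncRNA boundary.

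Few pseudogenes carried a summit more than 2 kb from coding boundaries. Summits nearer to a coding boundary were not counted. Among the 8669 pseudogenes with at least one base of their window far from coding boundaries, 505 had a summit within 500 bp, or 5.83% (5.35 to 6.34), and among 12049 such lncRNA genes 5204 did, or 43.2% (42.3 to 44.1). lncRNA genes are longer, so the shares were also compared at like lengths. For spans from 500 to under 1000 bp, 127 of 3327 pseudogenes (3.82%, 3.22 to 4.52) and 61 of 249 lncRNA genes (24.5%, 19.6 to 30.2) had a summit. For 5000 to under 20000 bp the shares were 11.3% (8.82 to 14.4) of 495 pseudogenes and 44.5% (43.2 to 45.9) of 5320 lncRNA genes, and at 20000 bp or more 30.5% (24.5 to 37.2) of 197 and 56.7% (54.9 to 58.5) of 2918. Under 500 bp they were 5.11% (4.13 to 6.30) of 1586 pseudogenes and 31.0% (17.3 to 49.2) of only 29 lncRNA genes. None of these intervals overlapped between pseudogenes and lncRNA genes of like length.

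**Figure D2:**
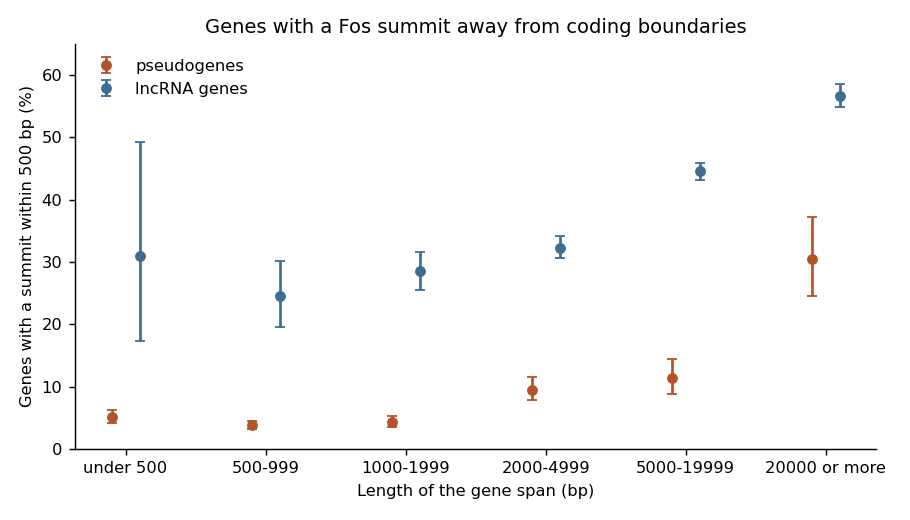
Share of pseudogenes and lncRNA genes with a Fos summit within 500 bp and more than 2 kb from coding boundaries (y axis, %), by length of the gene span (x axis, bp); bars are 95% Wilson intervals. Pseudogenes run from 3.82% at 500 to under 1000 bp to 30.5% at 20000 bp or more and lie below lncRNA genes in every length class.

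Members were spread unevenly over pseudogenes. A single member was found at 335 pseudogenes, 2 to 4 at 140, 5 to 9 at 16 and 10 or more at 11, and these 11 held 164 of the 939. Pseudogenes of at least 5000 bp held 426 members (45.4%). The density inside the span was nevertheless alike across lengths, from 21.2 per Mb (16.2 to 27.3) at 1000 to under 2000 bp to 35.7 (20.4 to 58.0) under 500 bp, with 28.3 (25.0 to 32.0) at 20000 bp or more. The intervals of these length classes overlap inside the span. In the flanks the densities differed by length. They ran from 28.3 per Mb (22.8 to 34.7) at 500 to under 1000 bp to 59.6 (29.8 to 106.6) at 20000 bp or more, from 11 summits. Flanks of pseudogenes under 500 bp had 57.5 (46.1 to 70.8), an interval apart from that at 500 to under 1000 bp. In total 621 members (66.1%, 63.0 to 69.1) lay inside the span and 318 in the flank. By chromosome, the ratio to other distant sequence ran from 0.306 on chromosome 7 (69 members) and 0.320 on chromosome 2 (38) to 0.878 on chromosome 5 (105 members, 0.718 to 1.06). Chromosome 14, with 74 members, was the exception at 1.02 (0.797 to 1.27), and on the other 18 the ratio was below 1. Of the chromosome 14 members, 26 were nearest to Gm9243 and 12 to Gm9597.

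A pseudogene with a summit usually lay in a neighbourhood rich in summits. Between 1 and 50 kb from the span, pseudogenes with a summit had a median of 10 other distant summits (interquartile range 4 to 19), and those without one had a median of 1 (0 to 6). No distant summit lay in that neighbourhood for 41 of the 505 with a summit (8.12%) and for 3558 of the 8164 without (43.6%). For spans from 500 to under 1000 bp the medians were 14 and 1, so the contrast was also present among short pseudogenes of like length. Of the 137 pseudogenes of at least 20000 bp without a distant summit, 94 (68.6%) had no distant summit from 1 to 50 kb either.

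Summits at pseudogenes were close in strength to other distant summits, with slightly fewer strong ones. The median member had a fold of 5.77, with quartiles of 3.85 and 12.3, and 23 fragments, and the other distant summits had a median fold of 6.25, with quartiles of 4.09 and 13.7, and 25 fragments. Members ranged from 2.65 to 200.8 in fold, or from 10 to 834 fragments. A fold of at least 20, called strong below, was reached by 136 members at 100 pseudogenes, or 14.5% (12.4 to 16.9), against 17.2% of all summits more than 2 kb from coding boundaries. Under a fold of 5 lay 401 members (42.7%), against 38.1% of the others, and 11 members at 10 pseudogenes reached 100 or more. Summits inside the span had a median fold of 5.53 and those in the flank 5.77, with nearly the same quartiles. Region widths were alike as well, with a median of 483 bp against 493 bp, while 52.2% of members (49.0 to 55.4) were the only summit of their region against 45.5% of the others.

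**Figure D3:**
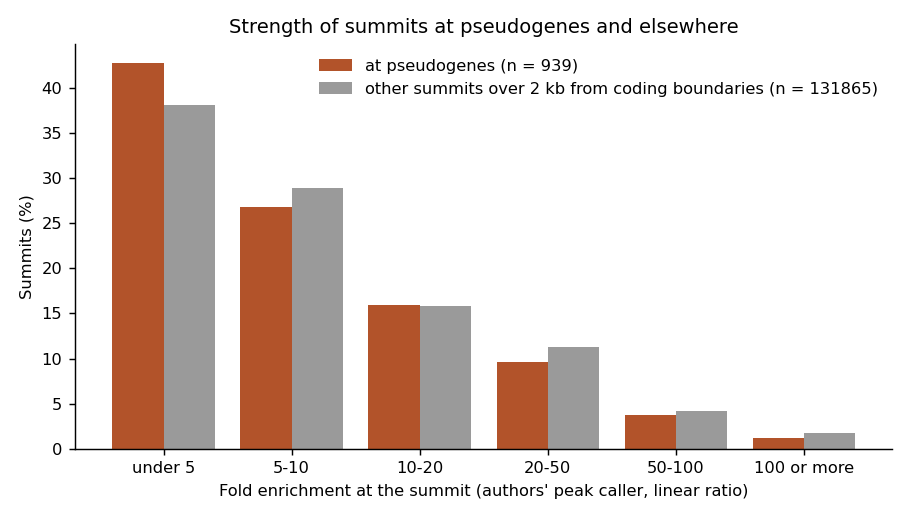
Percent of summits (y axis) by fold enrichment (x axis, bins of the linear ratio) for the 939 summits at pseudogenes and the 131865 other summits more than 2 kb from coding boundaries. The distributions lie close together, with 42.7% and 38.1% under a fold of 5 and 1.17% and 1.73% at 100 or more.

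The members farthest from a pseudogene, at 498, 497 and 495 bp, had folds of 7.70 (Gm4973), 12.3 (Gm19771) and 6.25 (Gm48191), and the 3 first summits beyond, at most 503 bp away, had 14.4, 16.4 and 11.1. The members closest to a coding boundary, at 2011, 2067 and 2067 bp, had folds of 3.37, 4.09 and 15.2, and the first summits left out, at 1967, 1954 and 1944 bp, had 8.90, 3.37 and 3.85.

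The 20 pseudogenes with the strongest summits included relics inside gene families, long predicted pseudogenes and a few short copies. Their strongest folds ran from 200.8 down to 73.6, with 305 fragments at the last. Of these 20 summits, 12 lay inside the span and 8 in the flank, and 4 lay inside a coding gene. Spans of at least 5000 bp made up 10 of the 20 and spans under 1000 bp made up 6. Of all 8669 pseudogenes with window bases far from coding boundaries, 495 spanned 5000 to under 20000 bp and 197 spanned 20000 bp or more. Under 500 bp there were 1586, and from 500 to under 1000 bp 3327. Longer spans offer more bases for a summit. The regions of the 20 summits were 704 to 3889 bp wide.

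**Figure D4:**
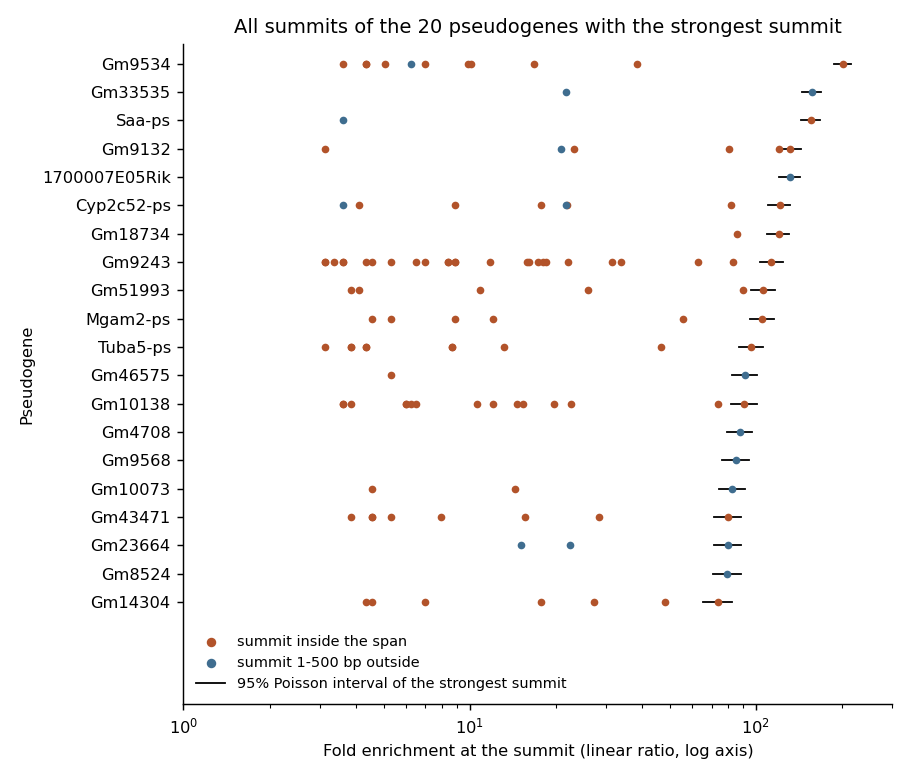
Fold enrichment (x axis, linear ratio on a log axis) of every summit of the 20 pseudogenes (y axis) with the strongest summit, with the 95% Poisson interval of the strongest. The 26 summits of Gm9243 run from 113.3 down to 3.13, while Gm4708 and Gm9568 have a single summit each, of 87.8 and 84.9.

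Among relics in gene families, Saa-ps led. It belongs to the serum amyloid A cluster, whose intact genes encode acute phase proteins that the inflamed colon epithelium makes. Saa-ps (chromosome 7, 46734688 to 46735583) had a summit at 46735165, inside its 896 bp and 2562 bp from a boundary of Saa4, with a fold of 155.4 from 645 fragments (596 to 697). Its other summit had a fold of 3.61. Saa genes are close paralogs, so this value is uncertain, as are those of the P450, serpin, histocompatibility and pheromone receptor relics below.

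Cyp2c52-ps, a relic of the cytochrome P450 2C family of drug and lipid oxidases, carried 8 summits in 6 regions across its 26966 bp on chromosome 19. The strongest, at 38987111, had a fold of 121.0 from 502 fragments (459 to 548), and the next had 81.5. The other 6 lay between 3.61 and 21.9. A second P450 relic, Cyp2d33-ps on chromosome 15, reached 37.3 at 5135 bp from Cyp2d12, with 2 further summits of 3.37 and 3.13.

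Mgam2-ps, whose strongest summit lay 49683 bp from Mgam, the maltase-glucoamylase gene of starch digestion, had 6 summits, all between 17848 and 20982 bp from the lower end of a span of 57767 bp on chromosome 6. Their folds were 105.1, 55.6, 12.0, 8.90, 5.29 and 4.57. The rest of this long relic had no summit. Serpina3e-ps, in the serpin cluster of chromosome 12 near Serpina3f, had 7 summits with a highest fold of 66.6 and 276 fragments (244 to 311). Klk2-ps, a kallikrein protease relic near Klk15, had 4 with a highest fold of 17.1.

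In the major histocompatibility complex on chromosome 17, Gm18734 had folds of 120.0 and 85.6 inside one region from 35303389 to 35305389, at 15821 bp from H2-Q1, an antigen presentation gene. H2-Q3, a class I relic near H2-Q2, had a single summit with a fold of 11.1 and 45 fragments. Tuba5-ps, an alpha tubulin relic of 8782 bp on chromosome 1, had 10 summits in 4 regions. The strongest had a fold of 96.2 within 1 kb of a boundary of the lncRNA gene Gm46159, and the second 46.4.

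Predicted pseudogenes, named only by a Gm number, made up 774 of the 939 members and 15 of the 20 strongest. They also made up 7007 of all 8669 pseudogenes with window bases far from coding boundaries, a like share. Gm9534, a span of 29400 bp on chromosome 5 at 23863248 to 23892647, had the highest summit of all, a fold of 200.8 with 834 fragments (778 to 893) at 23864454. It lay 1206 bp inside the lower end and 20309 bp from Tomm7, a subunit of the mitochondrial import pore. The second of its 11 summits had a fold of 38.5. Gm9132, 9265 bp on chromosome 7 near Sbf2, was strong in more than one place, with folds of 132.1, 120.5, 80.8, 23.1 and 20.9, and a sixth summit of 3.13.

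Other strong members sat within or near coding genes of varied function. Gm9243 overlaps Elf1 on chromosome 14 and had 26 summits in 12 regions over 43236 bp, 6 of them strong, with the highest at 113.3 and 470 fragments (428 to 514). That summit and the one at 83.2 in the start window shown above belong to one region, 79514989 to 79516148. Gm33535, a 748 bp copy within Aplp2, the gene of an amyloid precursor-like membrane protein, had a summit 471 bp outside it with a fold of 156.8 and 651 fragments (602 to 703). Gm51993 within Ston2 had 105.8 and 90.0 in a single region. Gm4708, 510 bp within the inflammasome gene Nlrc4, had one summit of 87.8, and Gm9568, 7857 bp from Gsdmd, the pore protein of pyroptosis, had one of 84.9. Gm10073, 15559 bp from the P-cadherin gene Cdh3, had 82.7 at the edge of its window, 495 bp away. The strongest summits of Gm33535, Gm4708, Gm9568 and Gm10073 lay beside the pseudogene, not in it.

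The remaining strong sites were also of mixed placement. Summits of 131.1 at 1700007E05Rik on chromosome 16, 91.4 at Gm46575 near Trip10, 79.9 at Gm23664 and 79.4 at Gm8524 lay 59 to 431 bp outside the span. Those of Gm10138 (90.9), Gm43471 (79.9) and Gm14304 (73.6) lay inside spans of 50555, 22965 and 22410 bp. Gm10138 had 15 summits in 11 regions, Gm31166 on chromosome 19 had 14 with a highest fold of 72.9, and Gm8091 on chromosome 5 had 14 with a highest fold of 30.3. Gm10138 and Gm9243 spread their summits along most of their length.

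**Figure D5:**
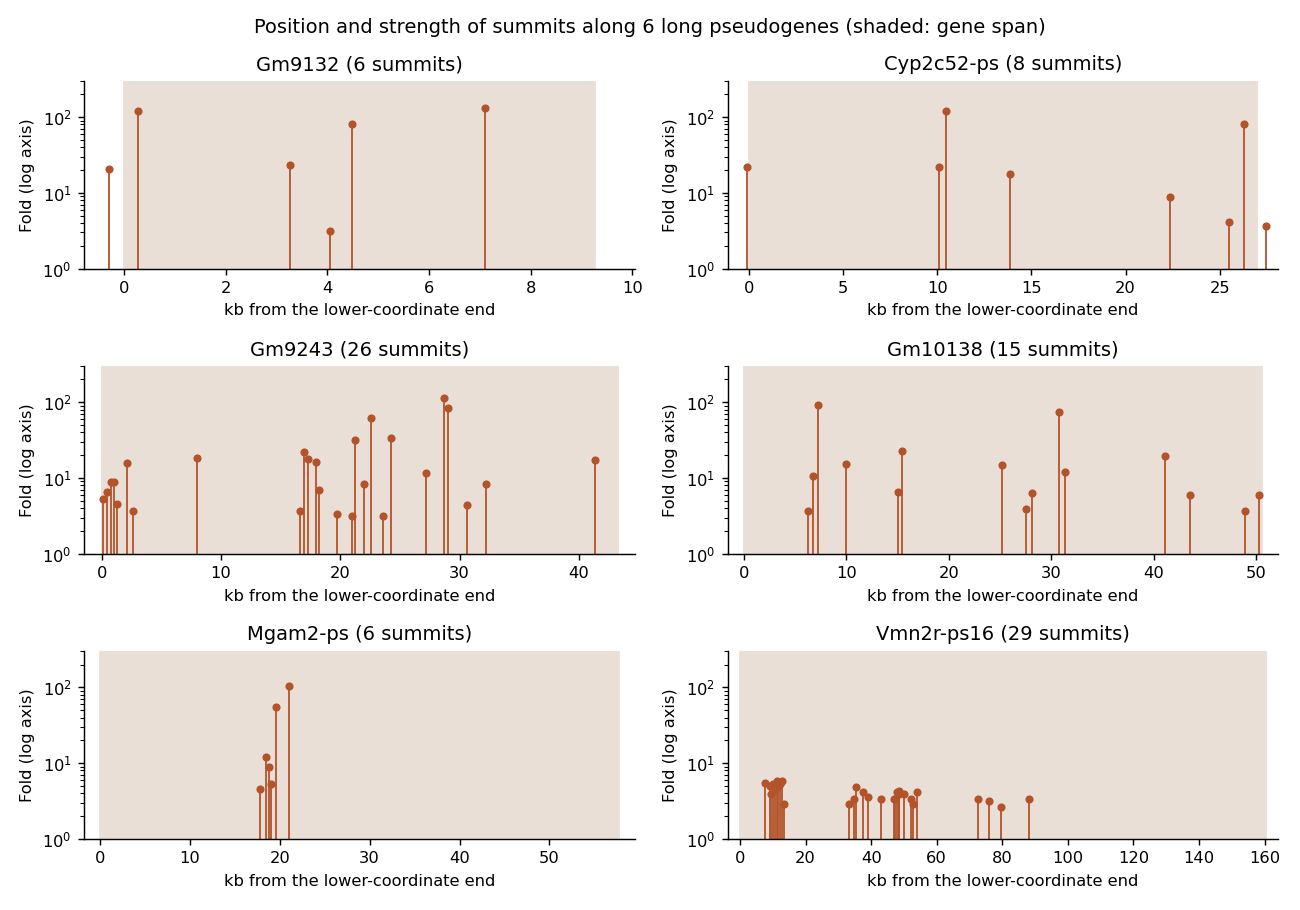
Position (x axis, kb from the lower-coordinate end) and fold (y axis, linear ratio on a log axis) of each summit along 6 long pseudogenes, with the gene span shaded. Mgam2-ps holds its 6 summits within one stretch, and the 29 of Vmn2r-ps16 all stay at or below 5.77.

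Vmn2r-ps16 had more members than any other pseudogene, and all of them were weak. This relic of a pheromone receptor gene of the vomeronasal organ spans 160377 bp on chromosome 4. It was nearest to 29 summits in 21 regions, with a median fold of 3.85, a maximum of 5.77 and 10 to 23 fragments. They lay from 7.67 to 88.3 kb from its lower end, and 10 of them lay inside Zfp992. Over the 0.141 Mb of its window far from coding boundaries, 31 summits gave 219.3 per Mb. This run of weak signal held 29 of the 35 members of the chemoreceptor class, and the other relics of that class had 6 in all.

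By the identity of the lost gene, the share with a summit ran from 0 to 35.7%, beside 5.83% of all pseudogenes. Ribosomal protein copies, taken by a symbol or synonym that starts with Rpl or Rps and typical retrocopies, had a summit at 13 of 279 (4.66%, 2.74 to 7.81). Their median fold was 4.33. The other family classes were likewise read from symbols or synonyms. Among the ribosomal protein copies the strongest were 26.9 at Rpl10a-ps1 and 24.1 at Rpl26-ps5, in both cases over 400 bp outside the copy. Fau-ps2, described below, is outside the ribosomal protein class by this rule. Chaperone and cyclophilin copies had one at 1 of 100 (1.00%, 0.177 to 5.45), the fold of 23.1 at Gm12608. Olfactory, vomeronasal and other chemoreceptor relics, of families best known from sensory neurons, had one at 5 of 567 (0.882%, 0.377 to 2.05), among them Olfr240-ps1 with a fold of 26.5 and Olfr1398-ps1 with 6.49. Their neighbourhoods had a median of 0 distant summits from 1 to 50 kb, against 5 for ribosomal protein copies.

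Serpin and protease relics had a summit at 5 of 14 (35.7%, 16.3 to 61.2) and detoxification relics at 4 of 33 (12.1%, 4.82 to 27.3). Median lengths of these classes were 3520 and 7805 bp, against 539 bp for ribosomal protein copies, and longer pseudogenes had summits more often. No distant summit was found at the 20 glycolysis copies (95% Wilson interval 0 to 16.1%) or at the 14 translation factor copies (0 to 21.5%). The small classes of respiratory chain (1 of 20), chromatin (1 of 21), cytoskeleton (1 of 10), immune (1 of 12) and zinc finger (1 of 12) copies had 1 pseudogene each with a summit. Among these, Ndufa12-ps reached 4.57, H1f11-ps, of a linker histone, 10.3 and Zfp520-ps 10.8. Predicted genes had one at 432 of 7007 (6.17%, 5.63 to 6.75). No family was read for these 7007, so the counts of the family classes cover only copies whose symbol or synonym names the family.

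Copies of genes with and without Fos signal carried summits at shares whose intervals overlap, and the difference was not tested. A parent could be read from the symbol for 571 pseudogenes, and 29 of them (5.08%, 3.56 to 7.20) had a summit. Where the parent had a summit within 1 kb of one of its boundaries, 26 of 523 copies did (4.97%, 3.41 to 7.18), and where it had none, 3 of 48 did (6.25%, 2.15 to 16.8). The median lengths of these copies were 715 and 1701.5 bp, and the shares were not compared at like lengths. Of the 266 parents, 239 had a boundary summit (89.8%, 85.6 to 92.9), against 63.3% of all protein-coding genes on these chromosomes. The strongest such copy was Anapc15-ps, of a subunit of the anaphase-promoting complex, with a fold of 53.9 and 223 fragments (195 to 254) 68 bp outside the copy and 108474 bp from the nearest coding boundary. Its parent had no boundary summit. Wdr46-ps within Akap9 had 4 summits of 51.5, 46.2, 16.6 and 12.3, and Bod1-ps had 38.5. Fau-ps2, of the gene for a ubiquitin-like protein fused to ribosomal protein S30, had 33.0 inside the copy and 20.0 at 152 bp outside it, both in one region within Sfi1 from 3184009 to 3200176 on chromosome 11.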

How the data were processed

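CUT&Tag libraries of Fos were made from colon of 2 healthy and 2 colitis-recovered mice. Bowtie2, MACS2 and mm10 are named in the submitters' processing notes, without versions. No source used here gives which libraries entered the list or how duplicates and reads with several placements were handled. The deposited list gives, per summit, fold enrichment (a ratio over background), −log10 p-value, −log10 q-value and a score equal to the integer part of 10 times −log10 q. The depth per library is unknown.

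All deposited folds were whole multiples of 0.2405 within 0.05 steps, the step of (pileup + 1) over (background + 1) at a background of 3.16 fragments. Pileups read from it gave back the deposited −log10 p within 0.01 at 100% of 166926 summits.

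Distances are to spans of 8884 pseudogenes, 12408 lncRNA genes and 20661 protein-coding genes of the RefSeq table, which has neither strand nor exons. Densities count the bases of each chromosome beyond position 3000000, up to its last gene or peak. Shares have 95% Wilson intervals and counts exact 95% Poisson intervals, which treat summits as independent and cover counting error only. A summit near several pseudogenes went to the nearest, then the first by symbol. Analyses used Python 3.11.15, and the density calculation was tested on simulated data.

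The members and lists were chosen with earlier results of these data known. The rule for names took the 20 pseudogenes with the strongest summit, the 5 with the most summits, the 2 strongest of each class and the 5 strongest with a parent in the symbol. Others named were chosen after their values were seen. The planned motif count in pseudogene start windows could not be made, as the sequence table used holds none, and start windows of other genes took its place. The alternatives were other windows, coding distances, q thresholds, biotypes and summits per region.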

Additional observations from a re-analysis of the deposited data

How the results depend on the processing

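The ratio of summit density at pseudogenes to other distant sequence stayed below 1 under all 10 alternatives. From 0.520 it went to 0.472 inside the span only, 0.589 within 1000 bp, 0.479 with −log10 q of at least 10, 0.558 with 1 summit per region, 0.567 with all pseudogene biotypes and 0.639 outside coding spans. The number of summits, 939, became 621 inside the span only and 492 with −log10 q of at least 10. The share of pseudogenes with a summit, 5.83%, became 3.45% inside the span only, 8.61% within 1000 bp, 6.51% with all biotypes, and, at −log10 q thresholds of 5 and 10, 4.51% and 3.38%. Those thresholds remove weak summits by construction, so the median fold rose from 5.77 to 7.70 and 11.3 and the share of fold 20 or more from 14.5% to 19.3% and 27.6%. The share inside the span, 66.1%, became 46.0% within 1000 bp and 69.6% with all biotypes. No paired analysis was possible because the list has no column per library.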

Other observations

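The interval of chromosome 17 that was left out holds Rn18s-rs5, a pseudogene of 18S ribosomal RNA at 39846354 to 39848202. All 10 summits there belong to one region and had folds of 229.0 to 526.5, above the 200.8 of the strongest summit kept, and 6 of them lay within 500 bp of Rn18s-rs5.

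Pseudogenes that RefSeq records as transcribed have a biotype of their own and were not among the members. On the same chromosomes 97 of 435 (22.3%, 18.6 to 26.4) had a summit within 500 bp and more than 2 kb from coding boundaries, against 505 of all 8884 plain pseudogenes (5.68%, 5.22 to 6.19). Their median lengths were 3407 and 904 bp, and the shares were not compared at like lengths. The strongest were H2-K2, a class I relic of the histocompatibility complex, with a fold of 145.0 and 602 fragments, Mfsd4b3-ps with 78.7, Ppp4r1l-ps with 77.2 and Speer9-ps1 with 77.0. Clca4c-ps, a relic of the calcium-activated chloride channel regulator family to which the goblet cell gene Clca1 belongs, had 4 summits with a highest fold of 45.5.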
